A study of Rattus norvegicus with 9 samples.

Results

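The genes described here were the 9 that carry the junctional, water and ion traffic of astrocytes, the star-shaped glia that tile the grey and white matter of the spinal cord: Gja1, Gjb6, Aqp4, Kcnj10, Mlc1, Hepacam, Slc4a4, Atp1b2 and Slc14a1. They were taken by symbol from a table of 34890 genes, and each symbol matched a single row. They had been picked because they were lower in PLM than in SNI, so that contrast is given below as a description, and the calls the fit makes in it are fixed by that choice and support nothing. The libraries came from the L3-L6 spinal cord of wild-type male Sprague Dawley rats, with 3 biological replicates in each of 3 groups. The paper's methods give the tissue as the ipsilateral side of the cord, that of the operation. JA rats had a sham operation and received normal saline. SNI rats had spared nerve injury, an operation that ties and cuts the tibial and common peroneal nerves and spares the sural nerve, and also received saline. PLM rats had the same injury and received the middle dose of a mixture of paeoniflorin, a monoterpene glycoside of peony root, and liquiritin, a flavanone glycoside of liquorice root. The mixture was labelled as 20.65 mg/mL paeoniflorin with 3.98, 3.99 and 3.100 mg/mL liquiritin for replicates 1, 2 and 3. The methods describe the same mixture for the whole group, so the steps between replicates are not read as different doses. All groups were dosed by stomach tube for 21 days before the cord was taken. No sham group with the drugs was among the samples, and the age of the rats was not given in the sources used here.

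Astrocytes are joined into a network by gap junctions, channels made of connexins that let ions and small metabolites pass from cell to cell. Their endfeet on blood vessels hold water channels and inward rectifier potassium channels, and the network takes up the potassium that firing neurons release. The sodium pump and a sodium bicarbonate cotransporter set the gradients and the pH on which this traffic depends, and the Mlc1 and Hepacam proteins sit together at astrocyte junctions and take part in the control of cell volume. In a cord that is processing injury input these functions are studied because astrocytes become reactive after nerve injury.

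Values are TPM, a transcript level scaled for transcript length and to the same sum in each library, so levels may be compared between genes. Differences between groups are given as log2 fold changes on the log2(TPM + 1) scale with their standard error (SE). The number of reads behind a TPM value cannot be recovered, and the SDs therefore stand without a counting interval. In a bulk tissue, fewer astrocytes and less of these transcripts per astrocyte cannot be told apart. The labels call the replicates biological and name no rat, so p-values measure the spread between these samples.

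All 9 genes were well above the filter of 1 TPM in every library. In SNI the mean level was highest for Atp1b2, at 489 ± 44.3 TPM (SD, n = 3), followed by Aqp4 at 318 ± 64.6, Kcnj10 at 167 ± 15.2, Mlc1 at 153 ± 18.3, Hepacam at 118 ± 2.45, Gja1 at 111 ± 14.7, Gjb6 at 62.7 ± 4.11, Slc4a4 at 36.0 ± 4.76 and Slc14a1 at 22.5 ± 3.40. In that order the samples of Kcnj10 and Mlc1 overlapped, as did those of Hepacam and Gja1, while every other pair of neighbours was apart. In PLM the order was the same except that Hepacam, at 80.6 ± 6.53 TPM, stood above Mlc1, at 51.0 ± 6.52 TPM, and all neighbours were apart. In JA all neighbours overlapped except Aqp4 and Kcnj10.

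**Figure D1:**
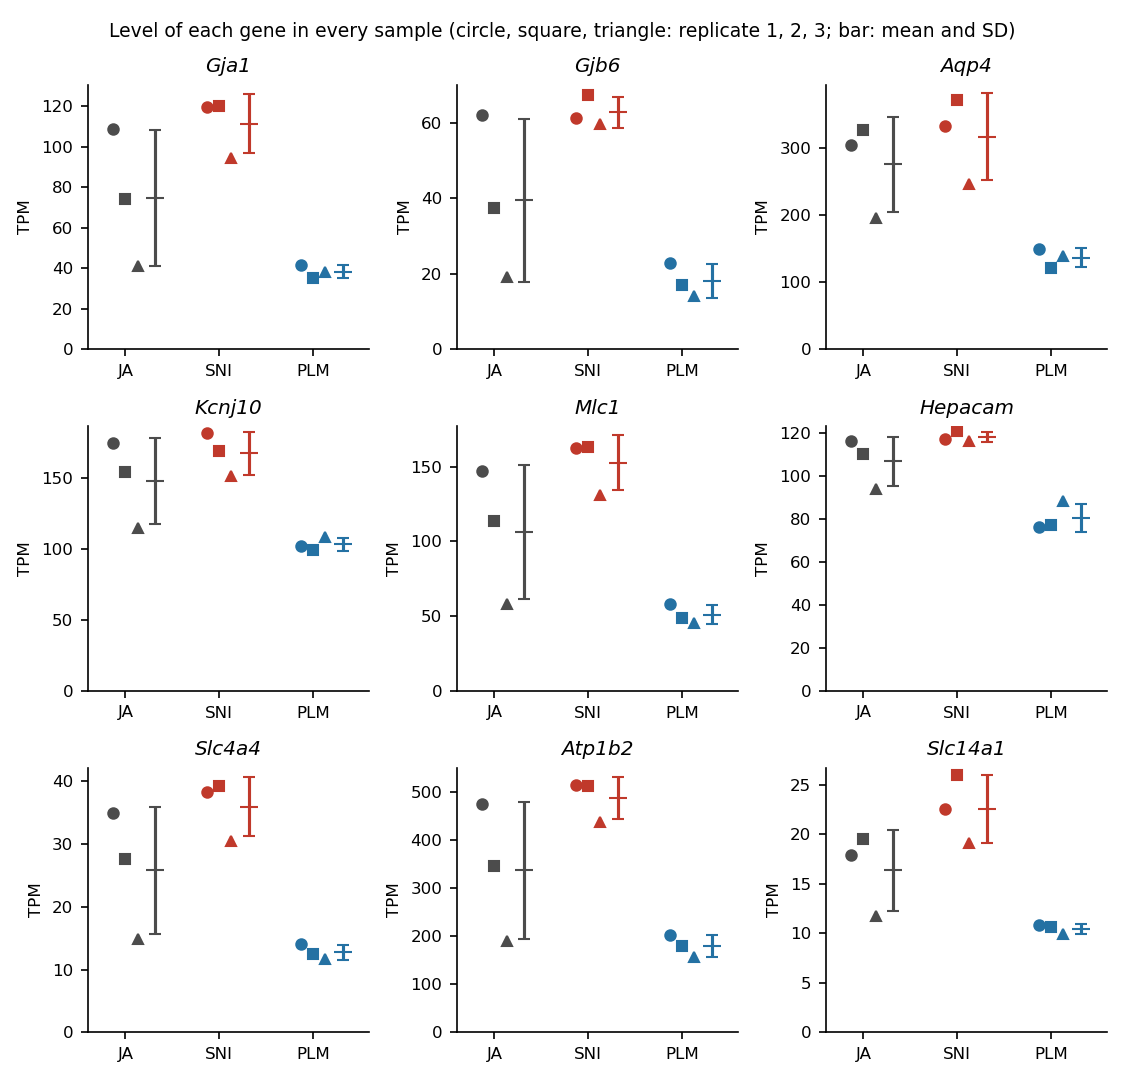
TPM of the 9 genes on linear axes that start at 0, with 1 point for each of the 9 libraries and a bar for the mean and SD of each group. All 3 PLM points lie below all 3 SNI points for each gene, and the JA points spread widely, with replicate 3 lowest in 9 of 9 genes.

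Promoter sequence is shown for Gja1, Kcnj10 and Atp1b2, as examples of a connexin, a channel and a pump subunit for which RefSeq places the bases before the annotated start outside the gene itself. Hepacam also meets that condition and is not shown. Gja1 and Atp1b2 fell by similar amounts and Kcnj10 by less. The bases are from the GRCr8 assembly of the rat, 5′ to 3′ on the strand of the gene, with GC boxes (GGGCGG or its complement) and the TATA box (TATAAA) in capitals. The window of Gja1 is at chr20:36302314-36302489 on the plus strand, that of Kcnj10 at chr13:87334260-87334509 on the plus strand, and that of Atp1b2 at chr10:54823709-54823958 on the minus strand.
Gja1: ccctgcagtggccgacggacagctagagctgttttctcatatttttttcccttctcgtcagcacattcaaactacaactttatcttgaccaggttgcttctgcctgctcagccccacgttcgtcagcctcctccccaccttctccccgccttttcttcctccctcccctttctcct
Kcnj10: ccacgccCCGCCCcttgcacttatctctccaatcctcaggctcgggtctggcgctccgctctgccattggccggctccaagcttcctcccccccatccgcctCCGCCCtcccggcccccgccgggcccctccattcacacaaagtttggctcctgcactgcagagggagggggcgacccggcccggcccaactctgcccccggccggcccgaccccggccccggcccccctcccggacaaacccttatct
Atp1b2: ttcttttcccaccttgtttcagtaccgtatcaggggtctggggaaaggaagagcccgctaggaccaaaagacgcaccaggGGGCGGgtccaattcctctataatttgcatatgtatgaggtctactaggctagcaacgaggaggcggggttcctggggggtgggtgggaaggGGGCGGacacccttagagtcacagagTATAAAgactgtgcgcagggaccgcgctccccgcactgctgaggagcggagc
The Kcnj10 stretch holds 2 GC boxes, the Atp1b2 stretch holds 2 GC boxes and a TATA box, and the Gja1 stretch holds neither motif. Over the full RefSeq windows of 300 bases, 12 windows for the 9 genes, GGGCGG on either strand was found in 5 of the 12 windows (4 of the 9 genes) and in 33.1% of 33469 windows of the same length. TATAAA was found in 2 of 12 windows and in 14.2% of all windows. TTGGCA, a half-site of nuclear factor I, was found in 4 of 12 windows and in 14% of all windows. AACAAT, the core of SOX sites, was found in 1 of 12 and in 11.7% of all windows, and TTCNNNGAA, the STAT site, in 0 of 12 and in 8.87% of all windows. A match here describes letters in a window and is not a binding site.

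The connexins come first. Gja1 encodes connexin 43, the main gap junction protein of astrocytes (ENSRNOG00000000805). Its levels were 109, 74.0 and 41.4 TPM in JA replicates 1 to 3, 120, 120 and 94.5 TPM in SNI, and 41.8, 35.3 and 38.1 TPM in PLM. All PLM samples lay below all SNI samples, by a log2 fold change of -1.51 (SE 0.12), or 65.5% of the SNI mean, while JA replicate 3 lay within the PLM range. Gjb6 encodes connexin 30, another gap junction protein of astrocytes (ENSRNOG00000022116). Its levels were 62.1, 37.3 and 19.1 TPM in JA, 61.3, 67.4 and 59.6 TPM in SNI, and 23.0, 17.1 and 14.2 TPM in PLM. This was the farthest fall among the 9 genes, with a log2 fold change of -1.76 (SE 0.16) and a PLM mean 71.2% below that of SNI. Both connexins moved nearly in step, since the ratio of Gjb6 to Gja1 was 0.568 ± 0.060 in SNI, 0.469 ± 0.090 in PLM and 0.512 ± 0.055 in JA, and the samples of the 3 groups overlapped.

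Aqp4 encodes aquaporin 4, the water channel of the astrocyte endfoot (ENSRNOG00000016043). Its levels were 305, 327 and 196 TPM in JA, 334, 372 and 246 TPM in SNI, and 150, 121 and 139 TPM in PLM. The PLM samples lay below every JA and every SNI sample, and the log2 fold change against SNI was -1.19 (SE 0.16). Slc14a1, a urea transporter that also passes water, stood at a much lower level (ENSRNOG00000016753). It was at 17.9, 19.5 and 11.8 TPM in JA, 22.5, 25.9 and 19.1 TPM in SNI, and 10.8, 10.6 and 9.90 TPM in PLM, a log2 fold change of -1.03 (SE 0.12) against SNI with PLM below both other groups throughout. The ratio of Aqp4 to Slc14a1 was 14.0 ± 1.01 in SNI and 13.1 ± 1.46 in PLM, which overlapped, and 16.8 ± 0.22 in JA, where all 3 samples were above those of the other groups.

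Kcnj10 encodes Kir4.1, the inward rectifier through which astrocytes take up potassium (ENSRNOG00000007705). It measured 174, 154 and 115 TPM in JA, 181, 168 and 151 TPM in SNI, and 102, 99.2 and 108 TPM in PLM. The PLM samples were below all others, but the fall from SNI was one of the smaller ones, at -0.69 (SE 0.08) in log2 fold change or 38.2%. The ratio of Kcnj10 to Aqp4, which share the endfoot, was accordingly higher in PLM, at 0.759 ± 0.070, than in SNI, at 0.536 ± 0.081, or JA, at 0.543 ± 0.062, without overlap.

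Atp1b2, the beta 2 subunit of the sodium pump in glia, had the highest level of the 9 (ENSRNOG00000011227). It was at 475, 347 and 190 TPM in JA, 515, 513 and 438 TPM in SNI, and 203, 181 and 156 TPM in PLM. The log2 fold change from SNI to PLM was -1.44 (SE 0.11), and JA replicate 3 lay inside the PLM range. Slc4a4, the sodium bicarbonate cotransporter NBCe1, followed it closely (ENSRNOG00000003134). Its levels were 34.9, 27.6 and 14.9 TPM in JA, 38.2, 39.2 and 30.5 TPM in SNI, and 14.1, 12.4 and 11.7 TPM in PLM, with a log2 fold change of -1.42 (SE 0.12). The ratio of Slc4a4 to Atp1b2 was 0.0734 ± 0.0034 in SNI, 0.0710 ± 0.0033 in PLM and 0.0771 ± 0.0032 in JA, so the carrier and the pump subunit kept almost 1 proportion while each varied several-fold.

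Mlc1 encodes a membrane protein of astrocyte junctions whose loss causes a leukodystrophy with swollen white matter (ENSRNOG00000032871). It was at 147, 114 and 58.5 TPM in JA, 163, 164 and 131 TPM in SNI, and 58.3, 48.9 and 45.8 TPM in PLM, a log2 fold change of -1.56 (SE 0.12) against SNI. Hepacam encodes GlialCAM, the adhesion molecule that brings Mlc1 to the junction (ENSRNOG00000009219). It was at 116, 110 and 94.0 TPM in JA, 117, 121 and 116 TPM in SNI, and 76.4, 77.3 and 88.1 TPM in PLM. This was the smallest of the 9 falls, with a log2 fold change of -0.55 (SE 0.07), or 31.8%. The partners thus parted: the ratio of Mlc1 to Hepacam was 1.29 ± 0.14 in SNI and 0.639 ± 0.12 in PLM without overlap, and in JA it was 1.27, 1.03 and 0.622 in replicates 1 to 3.

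Over the 9 genes, the median log2 fold change from SNI to PLM was -1.42, and -0.21 over all 15474 genes tested. The limma fit with Benjamini-Hochberg adjustment called 9 of 9 lower at an adjusted p under 0.05, as it did 13.6% of all genes (0.246% were higher), and 7 of 9 were past p under 0.05 with a log2 fold change beyond 1, as were 1.42% of all genes lower in PLM. Kcnj10 and Hepacam were the 2 that did not reach that fold. PLM lay below SNI without overlap in 9 of 9, as in 41.9% of all genes. The typical gene itself was lower in PLM, and after each library was centred on its own median the median over the 9 genes was -1.18 and that over all genes 0.04. On the centred scale 5 of 9 (Gja1, Gjb6, Mlc1, Slc4a4 and Atp1b2) had a limma adjusted p under 0.05, where 0.685% of all genes were called lower, with log2 fold changes from -1.52 for Gjb6 to -1.18 for Slc4a4. That count was 5 without PLM replicate 1, 1 without SNI replicate 3 and 0 without PLM replicate 2, PLM replicate 3, SNI replicate 1 or SNI replicate 2. For the other 4 the centred values were -0.95 for Aqp4, -0.78 for Slc14a1, -0.44 for Kcnj10 and -0.30 for Hepacam. Nothing is read from the counts of calls in this paragraph, on either scale, since the genes were chosen for being lower in this contrast.

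**Figure D2:**
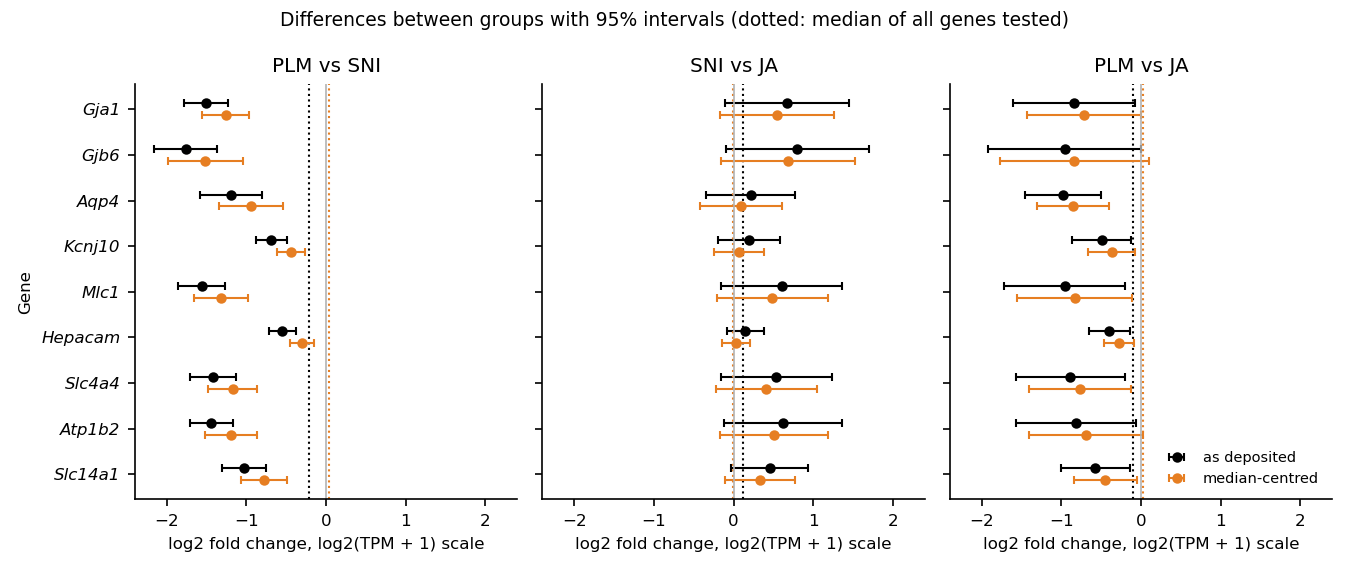
Log2 fold changes of the 9 genes in the 3 comparisons, as deposited and after centring each library on its median, with 95% confidence intervals from limma and dotted lines at the median of all genes. Points for PLM against SNI run from -1.76 for Gjb6 to -0.55 for Hepacam as deposited, those for SNI against JA lie above 0 with intervals that include it, and those for PLM against JA lie below 0.

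SNI against JA asks what the injury alone did. Every one of the 9 means was higher in SNI, by log2 fold changes from 0.15 (95% interval -0.08 to 0.38) for Hepacam to 0.80 (-0.10 to 1.70) for Gjb6, but 0 of 9 passed the test, with limma adjusted p from 0.614 to 0.724. No gene was called in this comparison among 15557, so the background was 0%, and 0 of 9 reached an unadjusted p under 0.05, against 6.11% of all genes higher in SNI. For Gja1 the log2 fold change was 0.67 (-0.11 to 1.45), for Atp1b2 0.63 (-0.12 to 1.37) and for Mlc1 0.61 (-0.15 to 1.37). For Slc4a4 it was 0.53 (-0.16 to 1.23), for Slc14a1 0.46 (-0.03 to 0.94), for Aqp4 0.21 (-0.34 to 0.77) and for Kcnj10 0.19 (-0.20 to 0.58). These intervals leave room for a rise past 2-fold in 5 of the 9 genes and for none at all in each. As deposited, only Hepacam, 1 of 9, had all SNI samples above all JA samples, against 12.1% of all genes. On the centred scale its samples overlapped, with SNI replicate 1 at 6.73 and JA replicate 1 at 6.78. The median over the 9 genes was 0.53 as deposited and 0.41 centred. It was 0.23 without JA replicate 3 and 0.79 without JA replicate 1, and without JA replicate 3 Aqp4 stood at -0.014. The SNI samples also entered the contrast that chose the genes, so these values are not independent of that choice.

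PLM against JA sets the treated injured cord beside the sham cord. All 9 means were lower in PLM, by log2 fold changes from -0.40 (SE 0.11) for Hepacam to -0.98 (SE 0.20) for Aqp4, with a median of -0.84 as deposited and -0.72 centred. Again 0 of 9 passed, with limma adjusted p from 0.276 for Aqp4 to 0.425 for Gjb6, and 0.013% of 15349 genes were called lower and 0.00652% higher. At an unadjusted p under 0.05, 8 of 9 were lower, against 10.5% of all genes, with Gjb6 the exception, and on the centred scale 7 of 9 were, against 4.72%. As deposited, the PLM samples lay below all JA samples in 6 of 9 genes, against 15.7% of all genes, and overlapped them in Gja1, Gjb6 and Atp1b2 through JA replicate 3. On the centred scale Mlc1, Slc4a4 and Slc14a1 overlapped as well, since PLM replicate 1 stood above JA replicate 3 (6.08 and 5.97 for Mlc1). Without JA replicate 3 the median was -1.21 and the log2 fold change of Aqp4 was -1.21 with an adjusted p of 0.0443 in limma (up to 0.698 with another replicate left out), while without JA replicate 1 the median was -0.52. This comparison shares the PLM samples with the one that chose the genes. With 3 samples a group an exact permutation test of a single gene cannot give a two-sided p below 0.1, so none is printed.

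The sham group was the most variable of the 3 in these genes. The mean of the 9 on the log2(TPM + 1) scale was 6.76, 6.49 and 5.77 in JA replicates 1 to 3, against 6.81 ± 0.16 in SNI and 5.57 ± 0.11 in PLM. JA replicate 3 was the lowest sham sample in 9 of 9 genes, and SNI replicate 3 the lowest injured one in 9 of 9. The SD over the JA samples on the log2 scale ran from 0.16 for Hepacam through 0.31 for Kcnj10, 0.37 for Slc14a1 and 0.40 for Aqp4 to 0.83 for Gjb6, with a median of 0.61 over the 9 genes and 0.18 over 15503 genes. Among the 9 genes, those that varied more within JA were also those with the larger PLM minus SNI difference, the measure that chose them. Across the 9 genes the Pearson correlation of the JA SD with the PLM minus SNI difference was -0.97, across 12 other astrocyte markers it was -0.90, and across 15503 genes it was -0.03. The difference keeps its sign, which is negative for each of the 9 genes and 12 markers. Over the 15503 genes rises and falls are mixed, so -0.03 does not measure a link with the size of change. Genes measured in the same libraries are not independent replicates, and these correlations are descriptions.

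**Figure D3:**
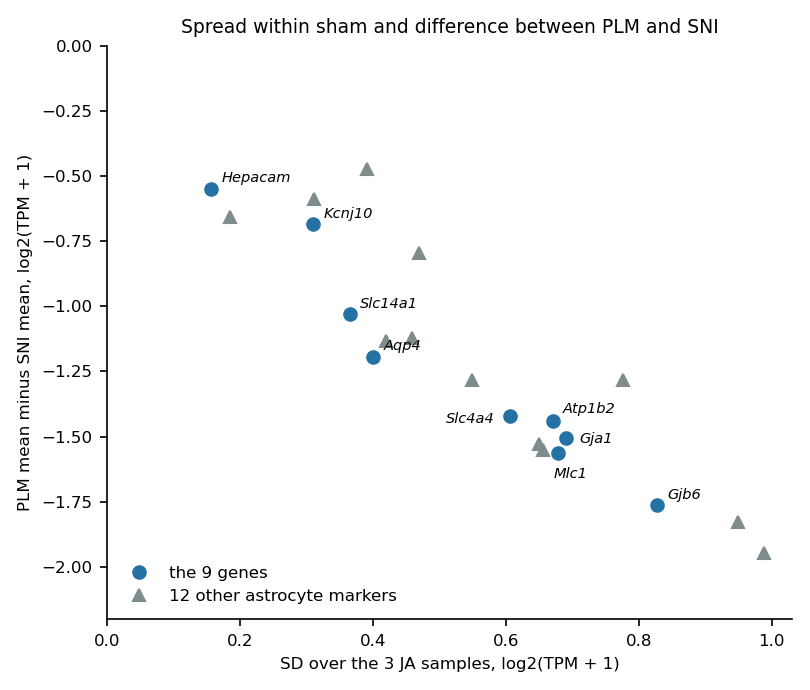
SD over the 3 JA samples against the PLM minus SNI difference, both on the log2(TPM + 1) scale, with 1 point per gene for the 9 genes and for 12 other astrocyte markers. Hepacam (0.16, -0.55) and Gjb6 (0.83, -1.76) are the ends of the line along which the 9 genes lie.

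The 9 genes moved with the astrocyte markers at large. Gfap, the intermediate filament of astrocytes, averaged 588 ± 28.3 TPM in SNI, 241 ± 22.1 in PLM and 607 ± 202 in JA. Slc1a2 and Slc1a3, the glutamate transporters, averaged 40.2 ± 2.37 and 48.3 ± 6.12 TPM in SNI against 9.86 ± 2.35 and 21.3 ± 0.937 TPM in PLM, and Aldh1l1, a folate enzyme used to mark astrocytes, 19.6 ± 1.29 against 8.52 ± 1.10. Of 12 such markers outside the 9 genes, 11 were lower in PLM than in SNI at a limma adjusted p under 0.05, as were 13.6% of all genes, with a median log2 fold change of -1.21 over the 12 and -0.21 over all genes. Sox9, a transcription factor of astrocytes, was the one that did not pass, with a log2 fold change of -0.47 and an adjusted p of 0.195. The marker list was chosen with earlier results of these data known, and this is the contrast that chose the 9 genes. The count of markers therefore describes these libraries and supports nothing further. The mean log2 level of the 9 genes minus that of the 12 markers was -0.31 ± 0.05 in SNI, -0.37 ± 0.08 in PLM and -0.42 ± 0.07 in JA. The PLM samples overlapped those of both other groups, while all JA samples lay below all SNI samples.

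Markers of other cells gave few calls, but some lists shifted. Between PLM and SNI the test called 0 of 8 neuronal, 0 of 8 oligodendrocyte, 0 of 3 oligodendrocyte precursor, 1 of 7 microglial, 0 of 5 endothelial, 0 of 4 ependymal, 0 of 4 Schwann cell and 1 of 5 fibroblast markers. The calls were Tmem119, a marker of resident microglia (-0.43, limma adjusted p 0.0378), and Igf2, a growth factor of the meninges (-0.68, adjusted p 0.0274), both lower in PLM. The median log2 fold change was -0.19 for the neuronal, -0.05 for the oligodendrocyte, -0.04 for the microglial, 0.10 for the endothelial and -0.12 for the ependymal list. It was -0.38 for the precursor, -0.67 for the Schwann cell, -0.65 for the fibroblast and 0.76 for the erythroid list. The mean log2 level of the precursor list was 3.11 ± 0.17 in SNI, 2.71 ± 0.02 in PLM and 2.89 ± 0.14 in JA, with all PLM samples below all SNI samples, and its part in the result was not tested. Of the 4 lumbar Hox genes 3 passed the filter, while Hoxa10 was at 0 to 1.41 TPM, and the forebrain markers summed to at most 0.02 TPM. The mean log2 level of the 4 Hox genes was 3.51 to 3.78 in SNI, above PLM (3.31 to 3.43) and JA (3.37 to 3.48) without overlap. Over the 3 that passed, the median log2 fold change of PLM against SNI was -0.21, as over all genes. The part of this list in the result was not tested. The 3 erythroid markers summed to 4423, 4114 and 9223 TPM in JA, 3170 to 5664 TPM in SNI and 6170 to 8433 TPM in PLM, so they were high where the 9 genes were low, in PLM and in JA replicate 3. Within SNI the order was the other way, since replicate 3, lowest in the 9 genes, also had the lowest erythroid sum. None of the 3 markers was called and none was at 0. Their part in the result was not tested. Schwann cell markers, which belong to nerve roots rather than cord, summed to between 55.7 and 5963 TPM in JA, 386 and 3437 in SNI, and 170 and 2536 in PLM, the top value again in JA replicate 3, and their part was not tested. The 13 mitochondrial protein genes held 23.7 to 26.1% of the TPM in SNI, 31.3 to 32.8% in PLM and 25.3, 32.8 and 29.3% in JA. With these left out and the rest rescaled, the median over the 9 genes for PLM against SNI was -1.29.

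**Figure D4:**
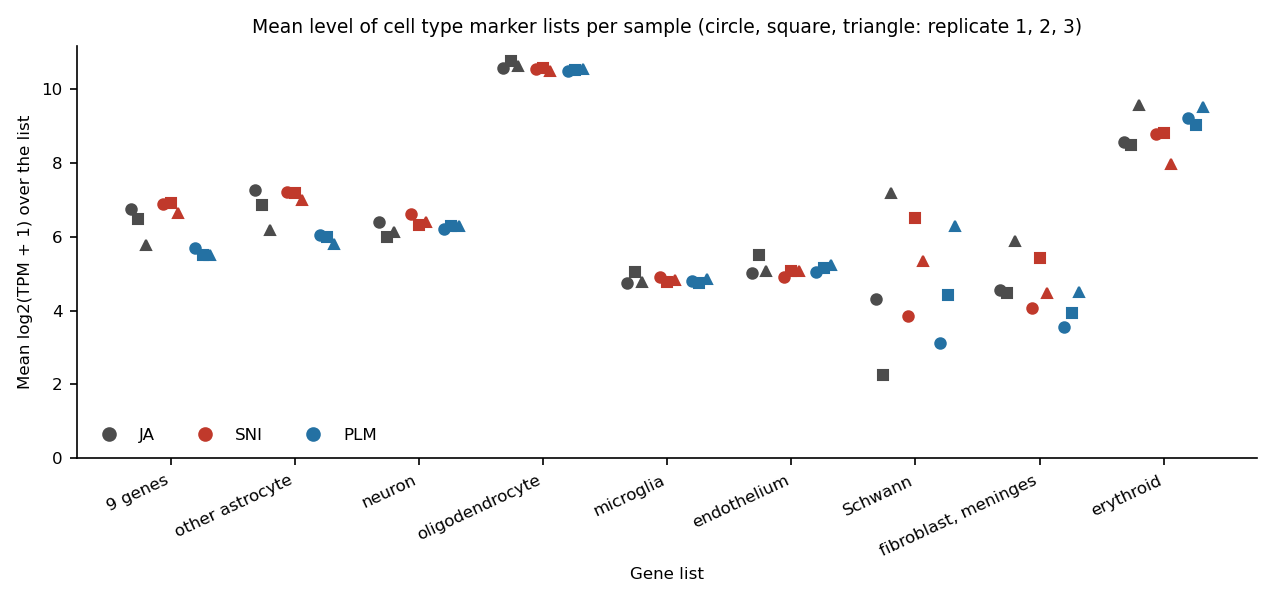
Mean log2(TPM + 1) of the 9 genes and of marker lists for other cell types, with 1 point per library and the groups side by side. The 9 genes (6.81 in SNI, 5.57 in PLM) and the other astrocyte markers (7.13 and 5.94) are lower in PLM, as is the mean of the fibroblast list, whose samples overlap (4.66 and 4.004), while the erythroid list is higher (8.52 and 9.25), the neuronal list is at 6.45 and 6.27 and the oligodendrocyte list at 10.5 in both.

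The wider families were taken from a list of 89 symbols, of which 88 were in the table. Of these, 52 genes passed the filter for PLM against SNI and 13 were lower and 0 higher at a limma adjusted p under 0.05, against 13.6% of all genes lower. The median was -0.29, near that of all genes, and -0.04 after centring, when 2 remained past the threshold. The 13 became 2 without PLM replicate 1, PLM replicate 2 or SNI replicate 3, 3 without SNI replicate 1, 6 without PLM replicate 3 and 10 without SNI replicate 2. One of the 2 calls on the centred scale was Kcnj16, which also passed with each of these libraries left out on the deposited scale. On the centred scale the 2 calls became 0 without PLM replicate 2. Kcnj16 encodes Kir5.1, which joins Kir4.1 in a mixed channel. It was at 28.7, 20.3 and 13.9 TPM in JA, 32.0, 32.3 and 26.1 TPM in SNI and 12.5, 10.8 and 9.77 TPM in PLM, a log2 fold change of -1.37 (SE 0.12) with a limma adjusted p of 0.00526, and -1.12 with 0.0317 centred. PLM lay below SNI without overlap, and JA replicate 3 was the lowest sham sample.

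The other 11 calls did not hold after centring, when the log2 fold change was -0.99 for Aqp9, -0.30 for Gjb2 and -0.28 for Fxyd1 but -0.08 for both Gjb1 and Agrn. The counts by family below stand beside 13.6% of all genes called lower in this contrast, and 1 of 9, 1 of 6 or 1 of 5 is near that share. Among connexins and pannexins 2 of 9 fell: Gjb2, connexin 26, from 4.38 ± 0.0902 to 2.68 ± 0.127 TPM with a limma adjusted p of 0.0214, and Gjb1, the connexin 32 of oligodendrocytes, from 182 ± 7.26 to 146 ± 10.7 TPM with 0.0355. Among aquaporins 2 of 4 fell: Aqp9, a channel for water and glycerol, from 5.66 ± 2.48 to 1.76 ± 0.622 TPM with an adjusted p of 0.0419, and Aqp12a with 0.0473. Aqp12a lies next to the kinesin gene Kif1a in the RefSeq table, and whether reads were shared was not tested. Among pump subunits 3 of 11 fell, and the regulator Fxyd1 was among them (-0.53, limma adjusted p 0.0471). Kcnj16 was 1 of 9 inward rectifiers. Of the carriers 1 of 6 fell. Of the partners of Mlc1 and Hepacam 1 of 5 fell, Lrrc8a (-0.49, limma adjusted p 0.0275), the required subunit of volume-regulated anion channels. In the dystrophin complex that anchors Aqp4 in the endfoot 3 of 8 fell, and among them were Dtna, a dystrobrevin (-0.34, limma adjusted p 0.0339), and Agrn, a matrix proteoglycan (-0.32, adjusted p 0.0409).

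**Figure D5:**
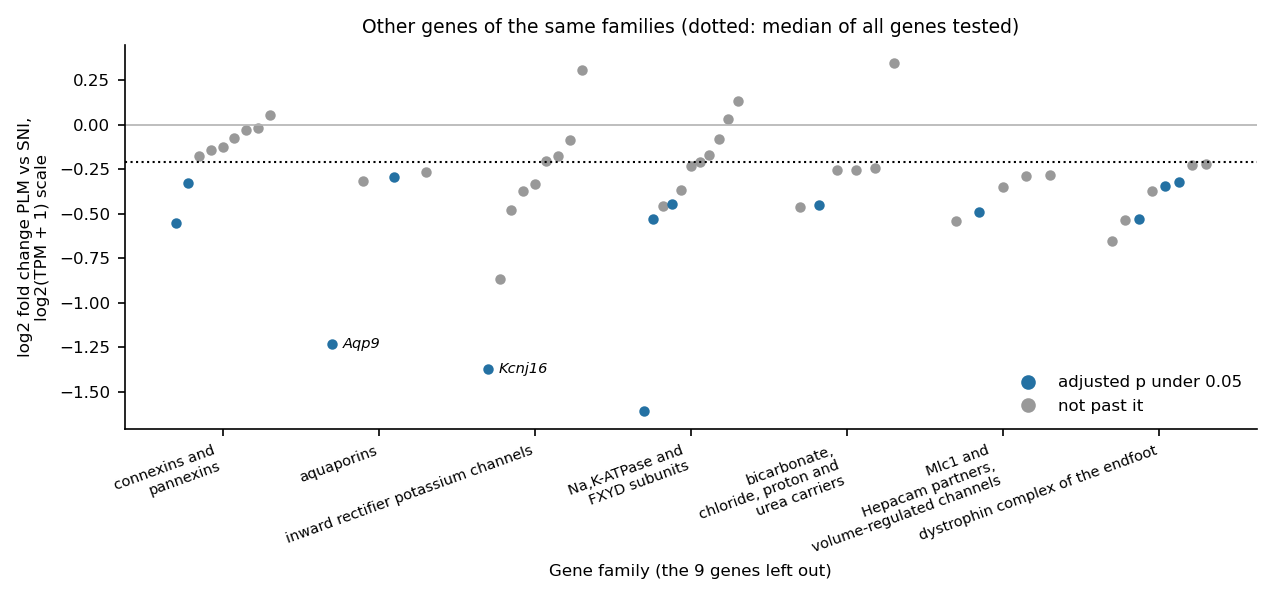
Log2 fold changes of PLM against SNI for the family genes that passed the filter, as deposited, grouped by family, with blue points for those past a limma adjusted p of 0.05, grey points for the rest and a dotted line at the median of all genes. Kcnj16 (-1.37) and Aqp9 (-1.23) are among the points that stand apart, while 47 of the 52 lie below 0. The median of the 52 is -0.29, and the dotted line is at -0.21.

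Neither of the other contrasts called a family gene. For SNI against JA 0 of 51 passed, with 1 lower and 3 higher at an unadjusted p under 0.05, against 0.99% and 6.11% of all genes. Among these were Kcnj3, a neuronal G protein-gated channel (0.54), and the pump subunits Atp1b1 (0.54) and Fxyd5 (-0.41), each with a limma adjusted p of 0.614, which Kcnj16 (0.55) shared. For PLM against JA 0 of 52 passed and 12 were lower at an unadjusted p under 0.05, against 10.5% of all genes. Among the smallest limma adjusted p values were 0.266 for Gjb1 (-0.50) and 0.296 for Fxyd1 (-0.50), followed by the volume-regulated channel subunit Lrrc8d and by Kcnj16 (-0.82), each with 0.353.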

How the data were processed

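RNA was sequenced from the ipsilateral side of the L3-L6 cord in 9 libraries, 3 in each of 3 groups. The authors deposited a table of TPM per gene. Their methods name HISAT2 and StringTie, and the submitters' processing notes name CASAVA, fastp 0.19.5 and StringTie with the build GRCh38.p13, a human assembly, while 32883 of the gene identifiers are those of the rat. The alignment build is therefore not settled, and coordinates are printed for GRCr8 promoter windows of RefSeq only. Each library summed to the same total within rounding and no pair of columns was identical. Read depth is not given by these values.

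From the TPM, limma 3.58.1 in R 4.3.3 (empirical Bayes with a mean trend) was fitted to log2(TPM + 1) for each pair of groups, over genes with a mean of at least 1 TPM in those samples, and p-values were adjusted by Benjamini and Hochberg over all genes fitted. The scripts were tested on simulated data. The fits were repeated after centring each library on its median, with quantile normalization, without mitochondrial genes, with another pseudocount and other filters, with all 9 samples, with the replicate number as a block, and without each replicate in turn. The 9 genes, the marker and family lists and the tests were chosen with earlier results of these data known. Named by rule were the 9 genes, family genes past an adjusted p of 0.05 and a log2 fold change of 1 or among the smallest p-values of a contrast, Gfap, Aldh1l1 and Slc1a3, and the 10 genes most correlated with the mean of the 9 over the 9 centred libraries, leaving out symbols of unnamed loci. The other family genes and markers were named after their values were seen. Some family genes are counted but not reported by name here.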

Additional observations from a re-analysis of the deposited data

How the results depend on the processing

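The reads behind each value are not known, so counting error enters no interval given here. The genes were chosen in PLM against SNI, so their counts of calls there describe the settings and support nothing. In that contrast the count of the 9 genes called lower was 9 as deposited, 5 median-centred, 5 with quantile normalization, 6 with the replicate block, 0 with the replicate block on centred values, 7 to 9 without 1 replicate and 0 to 5 without 1 replicate on centred values. The median log2 fold change of -1.42 was -1.18 centred, -1.19 with quantile normalization, -1.18 with the replicate block on centred values, -1.52 to -1.34 without 1 replicate and, on centred values without 1 replicate, -1.28, -1.26, -1.15, -1.15, -1.11 and -1.07. Of the family genes, 13 were called as deposited, 2 centred, 2 with quantile normalization, 2 without mitochondrial genes, 7 with no filter, 2 with all 9 samples in the fit, 2 with the replicate block, 0 with the block on centred values, 2 to 10 without 1 replicate and 0 to 2 without 1 replicate centred. Kcnj16 passed in each of these settings on the deposited scale. The replicate numbers are not shown to pair the rats: deviations from the group means correlated at -0.05 to 0.13 between samples of the same number and at -0.19 to 0.14 between others, so a call lost under the block is not described as a weaker effect. For PLM against JA, 0 of the 9 were called in each setting except 1, Aqp4, without JA replicate 3, and the median of -0.84 ran from -1.21 without that replicate to -0.52 without JA replicate 1 (-1.04 and -0.44 centred). For SNI against JA no setting called any of the 9, and the median of 0.53 ran from 0.23 to 0.79 (0.15 to 0.62 centred, the lowest without JA replicate 3). Aqp4 ran from -0.014 without JA replicate 3 to 0.39 without SNI replicate 3, and turned negative on centred values without SNI replicate 2 (-0.036) and without JA replicate 3 (-0.098), where Kcnj10 (-0.062) and Hepacam (-0.022) did as well. The cause of these turns was not tested.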

Other observations

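Among 12620 genes compared with the mean of the 9 over the 9 centred libraries, the 10 most alike had Pearson correlations from 0.989 to 0.996. Points share their libraries, so these are descriptions. The closest was Pla2g7, a secreted phospholipase that degrades platelet-activating factor, at 91.6 ± 37.3 TPM in JA, 130 ± 10.01 in SNI and 46.0 ± 5.32 in PLM. Prdx6, a peroxiredoxin with phospholipase activity, was at 198 ± 60.6, 250.03 ± 13.03 and 118 ± 10.1 TPM, and Glud1, the glutamate dehydrogenase of mitochondria, at 220 ± 62.5, 276 ± 21.7 and 144 ± 11.1 TPM. Gpt2, a mitochondrial alanine transaminase, was at 12.7 ± 3.03, 15.8 ± 0.571 and 8.76 ± 0.142 TPM. Tril, a partner of Toll-like receptors, was at 28.1 ± 12.02, 41.4 ± 7.22 and 13.1 ± 0.821 TPM. The others were Pamr1, Igsf1, Plxnb1, Sgca and the channel subunit Kcnj16 described above. Of these 10 genes, 7 were also among the 10 most alike on the deposited scale and 6 by Spearman's rho.

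Among the 9 genes themselves the 36 pairwise correlations over the centred libraries ran from 0.809 to 0.999, with a median of 0.936. The genes were chosen for being lower in PLM than in SNI in these same libraries, so high values are largely set by that choice and support nothing. Slc4a4 followed the mean of the other genes most closely, at 0.999, and Hepacam least, at 0.876.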
